A study of Mus musculus with 9 samples.

Results

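The 8 genes described here encode the cascade by which ON bipolar cells of the retina read glutamate: Grm6, Trpm1, Gnao1, Nyx, Gpr179, Rgs7, Rgs11 and Lrit3. They were chosen by gene symbol, and all 8 were found among the 21769 genes listed for each library. Polyadenylated RNA was sequenced from whole mouse retina in 9 libraries of 2 retinae each, and 1 read count per gene and library was deposited. The 3 wild type libraries came from normal retinae at postnatal day 48 and the 3 rd10 libraries from degenerated retinae at day 61. The 3 GFP libraries came from normal retinae of mice that express green fluorescent protein. The labels give day 42 to mice written as Gg13, read here as the GFP group because no other group lacked an age. Age thus coincided with genotype, and the 2 cannot be told apart. Beyond the name Gg13, the labels do not say which promoter or cell type drives GFP, nor the strain background of any group. The rd10 line carries a mutation of Pde6b, a subunit of the rod phosphodiesterase, and loses its rods after birth. Per the series' design text the replicates were biological.

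ON bipolar cells receive glutamate from photoreceptors in the dark through the metabotropic receptor mGluR6, made from Grm6 and placed at the tips of their dendrites. The active receptor switches on the G protein Go, whose alpha subunit is made from Gnao1, and this keeps the cation channel TRPM1 shut. When light lowers glutamate, the RGS proteins RGS7 and RGS11 speed the shutting off of Go. They sit in a complex with the beta subunit made from Gnb5 and are held in place by GPR179 and by R9AP, the product of Rgs9bp. Nyctalopin, made from Nyx, and LRIT3 are leucine-rich repeat proteins needed for TRPM1 to reach the dendritic tips. Mutations of Grm6, Trpm1, Nyx, Gpr179 or Lrit3 cause complete stationary night blindness, in which the signal from photoreceptors to ON bipolar cells is lost.

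Promoter windows of RefSeq, on build GRCm38.p6, were matched by symbol for 7 of the 8 genes, with 2 windows for Trpm1. Each window ran from 250 bases before to 50 after the start, and the 250 bases before the start are printed 5′ to 3′ on the gene's strand. Those of Grm6, Trpm1 and Gpr179 are shown because these 3 genes had the most alike levels over the 9 libraries, and that of Lrit3 because its profile was the least like theirs. Capitals mark the OTX/CRX core TAATCC, which appears as GGATTA on the opposite strand, and the E-box CANNTG. The positions are chr11:50850435-50850684 (+) for Grm6, chr7:64153585-64153834 (+) and chr7:64185209-64185458 (+) for Trpm1, chr11:97352357-97352606 (−) for Gpr179 and chr3:129804137-129804386 (−) for Lrit3.
Grm6: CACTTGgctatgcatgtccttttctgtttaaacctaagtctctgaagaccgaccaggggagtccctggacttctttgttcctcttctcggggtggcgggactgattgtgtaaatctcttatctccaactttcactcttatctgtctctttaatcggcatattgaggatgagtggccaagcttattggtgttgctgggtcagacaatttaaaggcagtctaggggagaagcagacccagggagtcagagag
Trpm1, window 1: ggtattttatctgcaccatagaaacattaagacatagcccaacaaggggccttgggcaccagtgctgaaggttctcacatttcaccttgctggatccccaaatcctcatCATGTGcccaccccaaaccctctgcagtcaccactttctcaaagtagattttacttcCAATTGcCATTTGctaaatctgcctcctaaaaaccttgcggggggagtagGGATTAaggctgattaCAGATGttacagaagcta
Trpm1, window 2: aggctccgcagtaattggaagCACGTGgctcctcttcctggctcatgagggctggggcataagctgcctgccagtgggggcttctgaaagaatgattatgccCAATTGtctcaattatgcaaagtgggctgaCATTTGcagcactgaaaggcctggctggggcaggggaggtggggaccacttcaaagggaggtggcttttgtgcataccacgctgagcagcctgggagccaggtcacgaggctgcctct
Gpr179: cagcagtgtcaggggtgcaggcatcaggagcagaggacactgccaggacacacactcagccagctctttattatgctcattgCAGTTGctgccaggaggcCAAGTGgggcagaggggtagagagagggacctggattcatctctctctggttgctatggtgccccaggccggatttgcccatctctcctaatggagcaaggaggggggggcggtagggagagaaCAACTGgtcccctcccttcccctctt
Lrit3: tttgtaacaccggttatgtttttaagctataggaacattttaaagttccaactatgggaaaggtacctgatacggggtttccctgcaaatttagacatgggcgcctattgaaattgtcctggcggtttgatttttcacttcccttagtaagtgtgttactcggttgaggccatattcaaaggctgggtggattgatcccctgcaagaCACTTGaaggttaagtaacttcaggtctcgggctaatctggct

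The letters TAATCC, searched on both strands of the whole windows, occurred in 1 of the 8 windows, the first of Trpm1, 34 bases before its start (position -34). Of all 32851 RefSeq windows of this length, 7.06% held them. CANNTG occurred in each of the 8 windows, against 72.3% of all windows. It was found 4 times in each Trpm1 window, 4 times in that of Gpr179 and once in each other window. That of Nyx (position 21) and the last of Gpr179 (position 13) and of Trpm1 window 2 (position 37) lay after the start. CACGTG, a form of CANNTG held by 7.15% of windows, was found in the second Trpm1 window and in that of Rgs7. The homeodomain core TAATTA, held by 5.29% of windows, was in none of the 8. The windows of Gnao1 and Rgs7 had a GC content of 76.3% and 73.3%, above 97.1% and 94.5% of all windows, where the median of all windows was 52.7%. Those of Nyx, Lrit3 and Grm6 had 46.0%, 46.3% and 49.7%, that of Gpr179 57.7%, and the 2 windows of Trpm1 48.3% and 57.3%. Such matches are descriptions of the sequence only.

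Levels are given as CPM, counts per 1000000 of library size, after the TMM scaling of edgeR (a trimmed mean over genes). Library totals ran from 9597635 to 12149448 counts, so 1 CPM stood for 9.60 to 12.1 counts. Groups were compared by edgeR's quasi-likelihood test, and each adjusted p is from this test with Benjamini-Hochberg adjustment over 14300 genes unless another is named. The 7 rod markers summed to 69340 to 92338.5 CPM in the 6 normal libraries and to 337 to 966 CPM in rd10. Wild type 2, wild type 3, rd10 2 and GFP 1 held lens transcripts, with 7 lens markers summing to 1552 to 3656 CPM against 2.80 to 26.6 CPM in the other 5 libraries. On the second principal component wild type 3 (-28.6) and GFP 2 (-54.5) lay below the other normal libraries. In rd10 against wild type, 2067 genes (14.5%) were higher and 1988 (13.9%) lower. With library totals in place of TMM the split was 3604 higher and 1077 lower, and the median log2 difference of all genes moved from -0.03 to 0.25. The 7 other ON bipolar markers were detected in all libraries, at a sum of 759.5 to 961 CPM in normal and 1131 to 1200 CPM in rd10 retina.

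Of the 8 genes, 5 were higher in rd10 than in wild type retina, where 14.5% of all tested genes were: Grm6, Trpm1, Gpr179, Gnao1 and Rgs7. None was lower, as 13.9% of all genes were, and Nyx, Rgs11 and Lrit3 did not pass. The median log2 difference of the 8 was 0.90. Against GFP retina 6 were higher, the same 5 with Nyx, where 15.2% of all tested genes were, and none was lower, where 15% of all genes were. The median was 0.83, against -0.02 for all genes. These 2 comparisons share the rd10 libraries and are not independent. Summed over the 8 genes, wild type libraries held 1211 to 1414 CPM, GFP libraries 1203 to 1392 CPM and rd10 libraries 2054 to 2627 CPM. In 6 of the 8 genes, the 5 called ones and Nyx, each rd10 library was above each wild type library, as for 26.1% of all genes. The same 6 lay above each GFP library, as for 25.1% of all genes. In none of the 8 did all rd10 libraries lie below all wild type or all GFP libraries, as they did for 24.5% and 23.1% of all genes. In bulk retina, more cells of a type and more RNA per cell cannot be told apart, nor can either be told from a smaller share of RNA from lost cells.

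**Figure D1:**
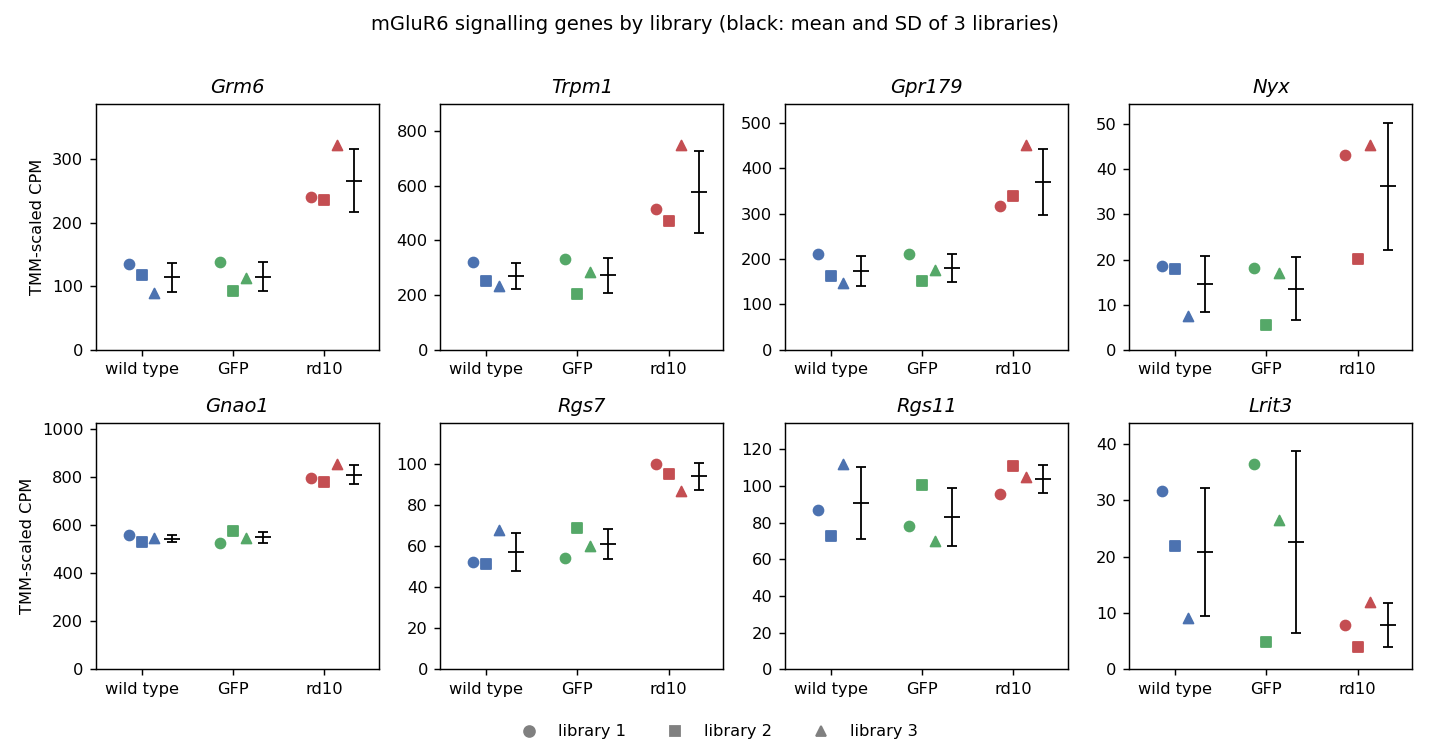
TMM-scaled CPM (linear axes from 0) of the 8 genes in each library of the wild type, GFP and rd10 groups; the marker shape gives the library number, and black bars are the mean and SD of 3 libraries. The rd10 points lie above all normal points for Grm6, Trpm1, Gpr179, Nyx, Gnao1 and Rgs7, and overlap them for Rgs11 and Lrit3.

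Grm6, the receptor gene (chromosome 11, 50664187 to 50679710, plus strand, build mm9), stood at 135, 117 and 89.4 CPM in wild type, 138, 92.8 and 113 CPM in GFP and 240, 235 and 323 CPM in rd10 libraries 1 to 3. The lowest rd10 library thus lay above the highest normal one. Wild type had a mean of 114 ± 22.9 CPM and rd10 one of 266 ± 49.3 CPM (SD, n = 3 libraries each). The difference from wild type was 1.23 on the log2 scale (SE 0.21, 95% interval 0.75 to 1.70, adjusted p = 0.00237), or 2.34-fold. Against GFP it was 1.21 (adjusted p = 0.00242). GFP and wild type differed by 0.01 (interval -0.45 to 0.48).

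Trpm1, the gene of the channel that the cascade closes (chromosome 7, 71298721 to 71414645, plus strand), measured 321, 252 and 232 CPM in wild type, 330, 204 and 283 CPM in GFP and 513, 472 and 750 CPM in rd10. No normal library reached the lowest rd10 library. It was 2.16-fold higher than in wild type (log2 1.11, SE 0.24, 95% interval 0.58 to 1.64, adjusted p = 0.00709) and differed from GFP by 1.09 (adjusted p = 0.00759). The microRNA gene Mir211 lies within Trpm1 on the same strand and was listed at 0 in all libraries.

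Gpr179, an orphan receptor gene whose product anchors the RGS proteins (chromosome 11, 97193423 to 97213387, minus strand), stood at 212, 162 and 148 CPM in wild type, 212, 152 and 176 CPM in GFP and 317, 338 and 452 CPM in rd10. The groups did not overlap, and the rd10 mean of 369 ± 72.6 CPM was 2.12-fold that of wild type (log2 1.09, SE 0.21, adjusted p = 0.00393). The difference from GFP was 1.04 (adjusted p = 0.00472).

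Gnao1, the alpha subunit of Go (chromosome 8, 96334738 to 96493288, plus strand), is made by many neurons besides bipolar cells. It varied least within groups, with coefficients of variation of 2.74%, 4.38% and 4.85% in wild type, GFP and rd10. The libraries read 557, 527 and 546 CPM in wild type, 526, 574 and 547 CPM in GFP and 795, 779 and 853 CPM in rd10, so rd10 stood clear of both. The rise was 1.49-fold against wild type (log2 0.57, 95% interval 0.27 to 0.88, adjusted p = 0.0120) and 0.56 on the log2 scale against GFP (adjusted p = 0.0130). With a trend of level on transcript length removed per library it was 0.28 against wild type and GFP alike and did not pass (adjusted p = 0.310 and 0.295). The antisense gene 4930488L21Rik overlaps it and had 0 to 6 counts per library.

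Rgs7 and Rgs11 encode the pair of RGS proteins that act on Go in these cells. Rgs7 (chromosome 1, 176989207 to 177422676, minus strand) measured 52.2, 51.1 and 67.5 CPM in wild type, 53.9, 68.5 and 60.0 CPM in GFP and 99.8, 95.2 and 86.8 CPM in rd10. Its rd10 values lay above all normal values, at 1.65-fold wild type (log2 0.72, 95% interval 0.37 to 1.07, adjusted p = 0.00784). Against GFP the difference was 0.63 (adjusted p = 0.0144), which did not pass without rd10 1 (0.59, adjusted p = 0.0583). Rgs11 (chromosome 17, 26339907 to 26348269, plus strand) measured 87.0, 72.8 and 112 CPM in wild type, 78.1, 101 and 70.1 CPM in GFP and 95.8, 111 and 105 CPM in rd10. The groups overlapped, and neither comparison passed. The difference was 0.20 against wild type (95% interval -0.22 to 0.62, adjusted p = 0.455) and 0.33 against GFP (interval -0.09 to 0.75, adjusted p = 0.214). The difference from GFP passed in 3 of 20 alternatives, with library totals, with the length trend removed and without wild type 3 and GFP 2 (adjusted p from 0.0272 to 0.0445).

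Nyx, the nyctalopin gene (chromosome X, 13044798 to 13066439, plus strand), was low and variable. It stood at 18.5, 17.9 and 7.52 CPM in wild type, 18.0, 5.50 and 17.1 CPM in GFP and 43.1, 20.02 and 45.5 CPM in rd10. Each rd10 library was above each normal one, rd10 2 only narrowly. Its log2 difference of 1.31 from wild type had a wide interval (0.27 to 2.35, SE 0.47) and did not pass (adjusted p = 0.0601), while that of 1.41 from GFP did (interval 0.37 to 2.46, adjusted p = 0.0442). The call moved with the setting. Against wild type Nyx passed in 8 of 20 alternatives, among them leaving out rd10 2 or GFP 2 (adjusted p = 0.0412 and 0.0117). Against GFP it failed in 7 of 20 (adjusted p from 0.0535 to 0.133): with only the 2 groups compared, and without wild type 1, wild type 2, rd10 1, rd10 3, GFP 2 or GFP 3.

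Lrit3 (chromosome 3, 129491209 to 129506948, minus strand), which photoreceptors also make and which acts across their synapse with ON bipolar cells, had lower means in rd10 without passing the test. It measured 31.6, 21.8 and 9.02 CPM in wild type, 36.4, 4.81 and 26.6 CPM in GFP and 7.82, 3.94 and 11.9 CPM in rd10, from 42 to 402 counts per library. The rd10 range overlapped wild type 3 and GFP 2. Its coefficient of variation was 54.4%, 71.6% and 50.3% in wild type, GFP and rd10. The log2 difference was -1.40 from wild type (SE 0.66, 95% interval -2.85 to 0.05, adjusted p = 0.132) and -1.52 from GFP (interval -2.97 to -0.07, adjusted p = 0.101). Without GFP 2 in the model both passed (adjusted p = 0.0277 and 0.00929). With wild type 3 and GFP 2 both left out, the 2 normal libraries with the lowest Lrit3, the differences were -1.76 (adjusted p = 0.00460) and -2.00 (adjusted p = 0.00226). That pair was chosen for its place on the second principal component, after the data were seen.

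**Figure D2:**
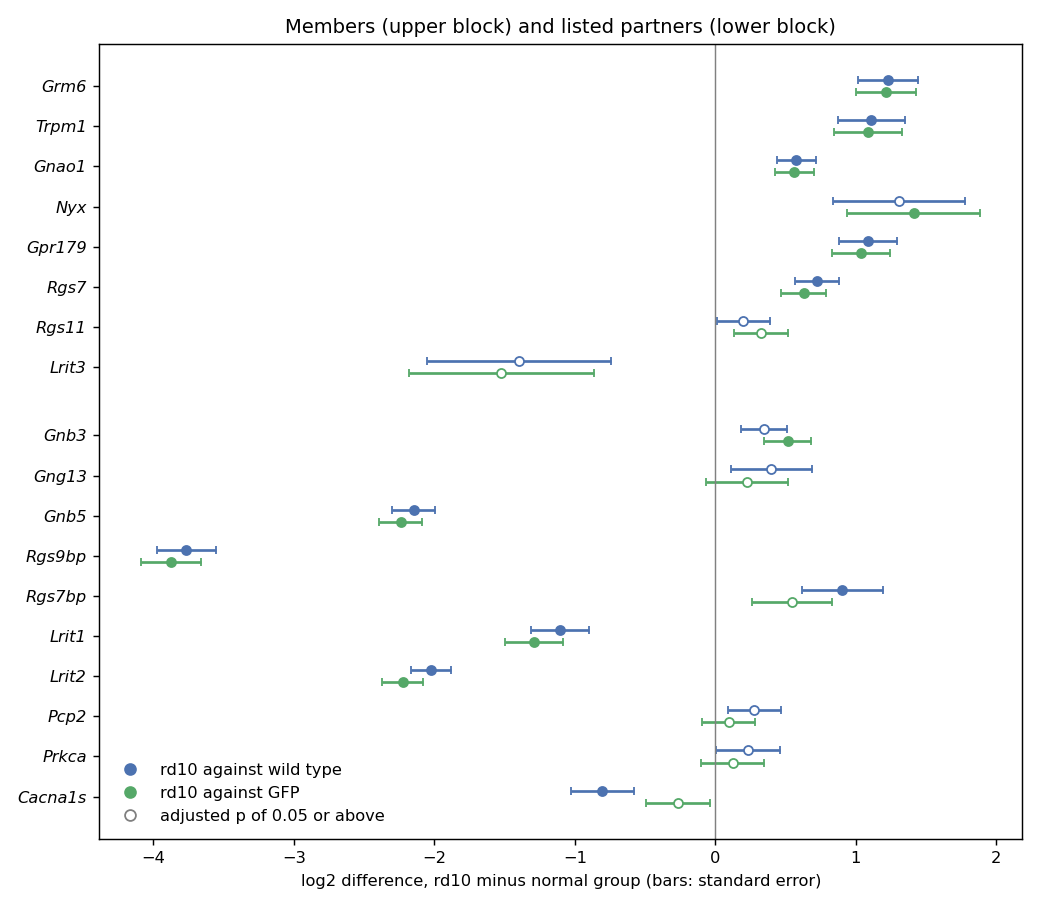
Log2 difference of rd10 from wild type (blue) and from GFP (green) for the 8 genes and 10 listed partners, with bars of 1 standard error; open points did not pass an adjusted p of 0.05. The 5 genes with filled points in both comparisons lie between 0.56 and 1.23, while Lrit3 lies at -1.40 and -1.52 and the partner Rgs9bp at -3.77 and -3.87.

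No difference between the normal groups passed for the 8 genes. GFP against wild type gave 0 calls among them and 0% among all 14300 genes by edgeR, with 214 genes at an unadjusted p under 0.05, and DESeq2 called 2 genes lower. The median log2 difference of the 8 was 0.02, and none had groups without overlap, as 1.52% of all genes did upward and 2.45% downward. Within the groups, the same libraries recurred at the ends. Among normal libraries Grm6, Trpm1, Gpr179, Nyx and Lrit3 were lowest of their group in wild type 3 and in GFP 2. Rgs7 and Rgs11 were instead highest of their group in wild type 3 and GFP 2. In rd10, Grm6, Trpm1, Gpr179, Nyx and Lrit3 were highest in library 3. Outside the 8, Elfn2 and Prox1 were likewise lowest of their group in both libraries, and Cabp4 was highest in both. Of lens transcripts, wild type 3 held 1552 CPM and GFP 2 held 26.6 CPM. What sets these libraries apart was not tested. Without wild type 3 and GFP 2 the differences of Grm6, Trpm1 and Gpr179 from wild type were 1.08, 1.01 and 0.98 (adjusted p = 0.00232, 0.00774 and 0.00590). Without the 4 lens libraries, which leaves 1 wild type library that is assumed to vary like the other groups, those 3 differences were 1.06, 0.97 and 0.86 and none of the 5 calls against wild type passed (adjusted p from 0.152 for Grm6 to 0.358 for Gnao1). Against GFP, in the same fit, Grm6, Trpm1, Gpr179 and Nyx passed (adjusted p = 0.0178, 0.0305, 0.0318 and 0.0383). Of the other genes named below as higher or lower than in wild type, only Rgs9bp, Gnb5, Rgs9, Lrit2, Cabp4, Egflam, Elfn1 and Cacna1f passed against wild type in that fit (adjusted p from 6.16e-04 to 0.0349).

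**Figure D3:**
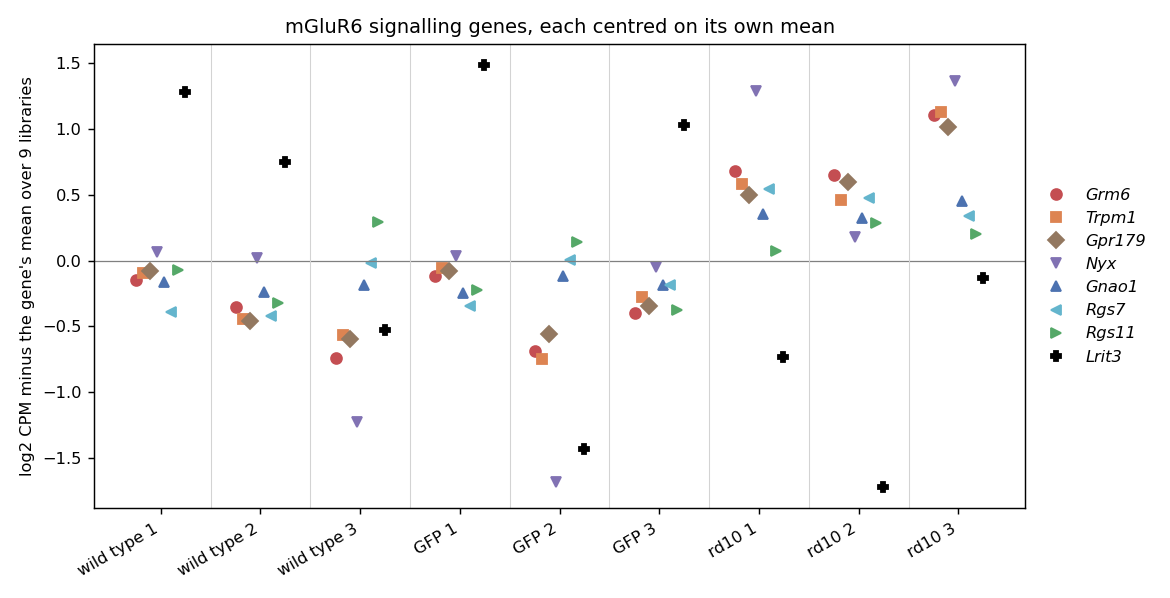
Log2 CPM of each of the 8 genes minus its own mean over 9 libraries, by library; colour and shape give the gene. Grm6, Trpm1 and Gpr179 lie close together in every library, while Nyx falls below them in wild type 3, GFP 2 and rd10 2, and Lrit3 is below them in all rd10 libraries.

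Likeness over the 9 libraries was measured as the root mean square difference of log2(CPM + 0.5) after each gene was centred on its own mean, among 11704 genes with a mean of at least 5 CPM. From Grm6, Gpr179 lay at 0.106 and Trpm1 at 0.111, followed by Gnao1 at 0.386, Rgs7 at 0.446, Nyx at 0.469, Rgs11 at 0.586 and Lrit3 at 1.36. Trpm1 and Gpr179 lay 0.0950 apart. Outside the 8, the nearest to Grm6 were Lhx1 (0.0652), Nav2 (0.0876), Sulf2 (0.108), Arhgef40 (0.117) and Zeb2 (0.122). Lhx1 encodes a transcription factor of horizontal cells, and its mean was 5.48 CPM in wild type and 13.0 CPM in rd10. The nearest to Trpm1 were Aff3 (0.0897), Lhx1 (0.0967), Atp2b2 (0.0987), Tox (0.104) and Ctnnd2 (0.107). Atp2b2, a plasma membrane calcium pump, had a mean of 124 CPM in wild type and 253 CPM in rd10. These distances describe 9 libraries that share 3 groups, and they carry no test.

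Levels of different genes were compared per kilobase of exon, with exon lengths taken from GENCODE vM21 by symbol. In wild type the order was Gnao1 (62.6 ± 1.72 CPM per kb), Rgs11 (45.1 ± 9.83), Trpm1 (33.8 ± 5.91), Grm6 (25.4 ± 5.12), Rgs7 (22.7 ± 3.67), Gpr179 (18.9 ± 3.63), Lrit3 (8.48 ± 4.61) and Nyx (2.82 ± 1.19). Libraries of neighbours in that order overlapped except between Gnao1 and Rgs11, Gpr179 and Lrit3, and Lrit3 and Nyx. GFP retina had the same order of means, from Gnao1 at 63.3 to Nyx at 2.61 CPM per kb. In rd10 the order of means was Gnao1 (93.2), Trpm1 (72.8), Grm6 (59.4), Rgs11 (51.7), Gpr179 (40.0), Rgs7 (37.4), Nyx (6.99) and Lrit3 (3.21). Rgs11 thus went from above Trpm1 and Grm6 in mean level to below them, and Lrit3 from above Nyx to below it. In rd10 the only neighbours whose libraries did not overlap were Rgs7 and Nyx.

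A ratio of 2 genes inside a library does not depend on how libraries are scaled. Log2 ratios were compared between the 3 rd10 and the 6 normal libraries by a two-sided exact permutation test, which can go no lower than p = 0.0238, with adjustment over the 8 ratios of each family. None of the 16 ratios passed, and an adjusted p under 0.05 could be reached only with several ratios of a family at that floor. Trpm1 per Grm6 was 2.38, 2.15 and 2.59 in wild type, 2.39, 2.20 and 2.50 in GFP and 2.14, 2.01 and 2.32 in rd10, a log2 difference of -0.14 (exact p = 0.0952, adjusted 0.127). Gpr179 per Grm6 was 1.57, 1.39 and 1.65 in wild type, 1.53, 1.64 and 1.55 in GFP and 1.32, 1.44 and 1.40 in rd10, a difference of -0.17 (exact p = 0.0714, adjusted 0.114). These 2 ratios kept within a narrow range while Grm6 itself spanned 89.4 to 323 CPM.

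Rgs11 per Grm6 was 0.645, 0.623 and 1.25 in wild type, 0.566, 1.08 and 0.620 in GFP and 0.400, 0.472 and 0.325 in rd10. Every rd10 ratio lay below every normal one, by -0.94 on the log2 scale (exact p = 0.0238, adjusted 0.0635). Rgs11 per Rgs7 differed by -0.40 (exact p = 0.0476, adjusted 0.0952). Lrit3 per Grm6 was 0.234, 0.187 and 0.101 in wild type, 0.264, 0.0519 and 0.235 in GFP and 0.0326, 0.0168 and 0.0368 in rd10. Here too the rd10 libraries lay below all normal ones, by -2.52 (exact p = 0.0238, adjusted 0.0635). Gnao1 per Grm6 differed by -0.66 (exact p = 0.0238, adjusted 0.0635), Rgs7 per Grm6 by -0.54 (exact p = 0.143, adjusted 0.163) and Nyx per Grm6 by 0.20 (exact p = 0.595). Grm6 itself was 1.23 higher than in wild type on the log2 scale. A gene that rose less thus falls in ratio to Grm6. The share of all genes whose rd10 ratios to Grm6 lay below all normal ones was not computed.

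Each gene was also set against the geometric mean of the 7 other ON bipolar markers of the same library, Pcp2, Prkca, Cabp5, Vstm2b, Sebox, Isl1 and Strip2, the last listed as Fam40b. Grm6 was 1.43, 1.18 and 0.962 times this reference in wild type, 1.43, 0.833 and 1.19 times in GFP and 1.71, 1.71 and 2.42 times in rd10. Every rd10 library was above every normal one, by 0.74 on the log2 scale. Trpm1 differed by 0.60 and Gpr179 by 0.57, with the same order of groups, and each of the 3 had the smallest p possible (exact p = 0.0238, adjusted 0.0635). For Trpm1 and Gpr179 the groups were only narrowly apart. Their lowest rd10 log2 ratios were 1.776 and 1.172, against highest normal ones of 1.770 and 1.167. The share of all genes whose rd10 ratios to this reference lay above all normal ones was not computed. Gnao1 differed from the reference by 0.08 (exact p = 0.286), Rgs7 by 0.20 (exact p = 0.119), Rgs11 by -0.21 (exact p = 0.214), Nyx by 0.93 (exact p = 0.119) and Lrit3 by -1.78 (exact p = 0.0952, adjusted 0.159). These ratios were not corrected for a trend of level on transcript length. With that trend removed, Grm6, Trpm1, Gpr179 and Rgs7 themselves differed from wild type by 1.15, 0.85, 0.80 and 0.82 on the log2 scale. These are differences in level, and the ratios to the reference were not computed with the trend removed.

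**Figure D4:**
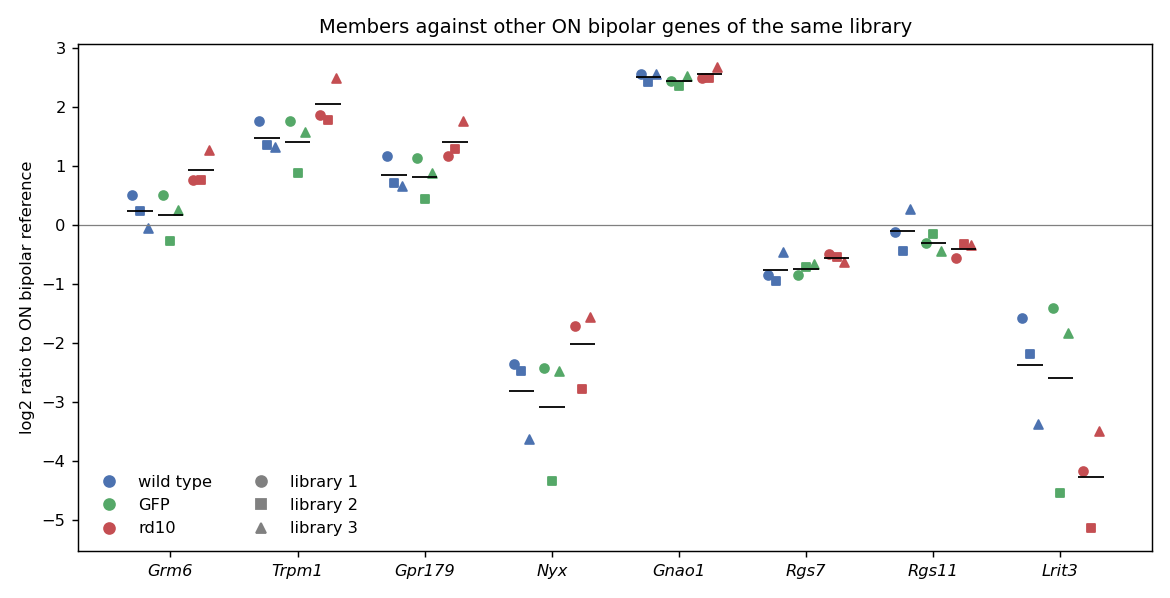
Log2 ratio of each gene's CPM to the geometric mean of 7 other ON bipolar markers in the same library; colour gives the group, shape the library number and short black bars the group mean. The rd10 points of Grm6, Trpm1 and Gpr179 lie above all 6 normal points, only narrowly for Trpm1 and Gpr179. Those of Gnao1 overlap the normal points, and those of Lrit3 lie lowest in mean. The share of all genes whose rd10 ratios lie above all normal ones was not computed.

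The reference markers themselves were mixed. In rd10 against wild type 4 of 7 rose, none fell, and the median was 0.65. Isl1, a transcription factor that amacrine and ganglion cells also make, differed by 1.14 (adjusted p = 0.00453), Vstm2b by 0.72 (adjusted p = 0.00448), Cabp5, a calcium-binding protein of bipolar cells, by 0.83 (adjusted p = 0.00538) and Fam40b by 0.65 (adjusted p = 0.0316). The call of Fam40b was lost without wild type 2, wild type 3 or any 1 of the rd10 libraries (adjusted p from 0.0677 to 0.108). Prkca, the protein kinase C of rod bipolar cells, had 0.23 (adjusted p = 0.467), and Sebox had -0.24 (adjusted p = 0.361). Of 6 OFF bipolar markers 5 rose, with a median of 0.99. Grik1, the kainate receptor subunit of OFF bipolar cells, went from 108 ± 15.4 to 214 ± 15.8 CPM (SD, n = 3 each, log2 0.99, edgeR adjusted p = 0.00198).

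Among 10 listed partners of the cascade and paralogs of Lrit3, 1 was higher, 5 were lower and 4 did not pass in rd10 against wild type, with a median of -0.29. Against GFP, 1 was higher and 4 lower, with a median of -0.08. The subunits of the RGS complex shared with photoreceptors stood far lower. Rgs9bp had 706 ± 181 CPM in wild type and 51.9 ± 1.44 CPM in rd10, 13.6-fold lower (SD, n = 3 each, edgeR adjusted p = 8.59e-07). Gnb5 was 4.43-fold lower, at 195 ± 6.86 against 864 ± 70.5 CPM (edgeR adjusted p = 4.15e-06). Both proteins also serve RGS9 in rods and cones, and Rgs9 fell from 2044 ± 287 to 263 ± 63.4 CPM (log2 -2.96, edgeR adjusted p = 1.29e-05). Rgs7bp, a membrane anchor of the RGS7 family, was 0.90 higher (adjusted p = 0.0369), a call lost in 6 further settings (adjusted p from 0.0739 to 0.122), among them leaving out wild type 2, wild type 3 or any 1 of the rd10 libraries. Rgs6, of the same family, differed by 0.93 (adjusted p = 0.0594).

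Gnb3 and Gng13, the beta and gamma subunits that partner Go in ON bipolar cells, did not pass against wild type. Gnb3 had means of 344, 306 and 437 CPM in wild type, GFP and rd10 (log2 0.35, adjusted p = 0.138). With library totals and with the length trend removed, Gnb3 did pass as higher than in wild type (adjusted p from 0.0124 to 0.0175). Its difference of 0.51 from GFP passed (adjusted p = 0.0380) but was lost in 7 further settings (adjusted p from 0.0521 to 0.113), among them leaving out wild type 3, GFP 1, GFP 3 or any 1 of the rd10 libraries. Gng13 had means of 158, 178 and 208 CPM (log2 0.40, adjusted p = 0.323). With the length trend removed, Gng13 did pass as higher than in wild type (adjusted p = 0.00573). It overlaps Chtf18 on the opposite strand, which had 43 to 209 counts per library, and the strand setting is not given in the sources used here, so reads of such pairs cannot be told apart. Pcp2, a regulator of Go signalling in rod bipolar cells, had means of 128, 145 and 155 CPM (log2 0.28, adjusted p = 0.288) and overlaps 2900053A13Rik in the same way, with 244 to 613 counts. Like Gnb3, Pcp2 passed against wild type with library totals and with the length trend removed (adjusted p from 0.0212 to 0.0328). The paralogs Lrit1 and Lrit2 both fell, by 1.10 (adjusted p = 0.00334) and 2.03 (adjusted p = 3.89e-06) on the log2 scale, Lrit2 from 237 to 58.2 CPM. Lrit1, a protein of photoreceptor synapses, had means of 349 and 162 CPM. Cacna1s, a calcium channel subunit, differed by -0.81 (adjusted p = 0.0233), a call lost in 5 further settings, among them library totals and leaving out wild type 2, wild type 3, rd10 1 or rd10 2 (adjusted p from 0.0619 to 0.0999). Against GFP it differed by -0.27 and did not pass (adjusted p = 0.390).

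Across the synapse, 7 of 12 genes of photoreceptor terminals fell, none rose and 5 did not pass, with a median of -1.16 against wild type and -1.15 against GFP. Elfn1, the rod adhesion protein that binds mGluR6, fell from 127 ± 8.11 to 27.9 ± 9.04 CPM (SD, n = 3 each, log2 -2.18, edgeR adjusted p = 2.58e-04). Egflam, which encodes pikachurin, a matrix protein of the cleft that binds GPR179, fell by 3.15 on the log2 scale (adjusted p = 3.49e-06). Cabp4 and Cacna1f, parts of the calcium channel complex that drives glutamate release, fell by 4.38 (adjusted p = 3.13e-06) and 1.36 (adjusted p = 5.56e-04).

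Other families gave a background for the receptor, G protein and channel. Of 7 other metabotropic glutamate receptors 4 were higher and 1 lower in rd10 than in wild type. Grm5 differed by 1.61 (adjusted p = 2.35e-04) and Grm7 by 1.17 (adjusted p = 0.00135), against 1.23 for Grm6. Grm8 was lower (log2 -0.64, adjusted p = 0.0235), a call lost in 6 further settings (adjusted p from 0.0610 to 0.150), among them library totals and leaving out wild type 1, wild type 2 or any 1 of the rd10 libraries. Of 10 other G protein alpha subunits 2 were higher and 1 lower. Gnai1 differed by 1.02 (adjusted p = 0.00158), Gnai2 by 0.62 (adjusted p = 0.0220, lost without wild type 3 or rd10 3) and Gnaz by -1.22 (adjusted p = 0.00784). Of 5 other TRPM channel genes tested, Trpm3 was higher by 1.19 (adjusted p = 0.0157), a call lost without wild type 2, wild type 3 or rd10 3 (adjusted p from 0.0530 to 0.0597).

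Markers of other retinal cells moved in the same libraries. All 7 rod markers fell, with a median of -7.33, and their summed levels are given above. Of 6 cone markers 1 rose and 1 fell. Higher levels passed for 5 of 5 amacrine markers (median 0.71), 6 of 6 Müller glia markers (1.07), 7 of 7 microglia markers (1.61), 3 of 6 ganglion cell markers (0.84), 2 of 5 horizontal cell markers (1.15) and 1 of 6 pigment epithelium markers (0.47), and none of these fell. None of 7 lens markers passed. The Müller list summed to 3686 to 5468.9 CPM in normal and 7842 to 8444 CPM in rd10 libraries, and the amacrine list to 825 to 927 and 1305 to 1370 CPM. The part of these changes in the values of the 8 genes was not tested, and the within-library ratios did not measure it.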

How the data were processed

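Whole-retina RNA was measured in 9 libraries, 3 each of wild type, rd10 and GFP mice. The deposited values are 1 whole-number count per gene and library, which the authors made on build mm9, per the submitters' processing notes. The aligner, counter, annotation and strand setting are not given in the sources used here. Positions are those of the deposited files, with 1 added to each start. Promoter windows and exon lengths come from GRCm38 tables, matched by symbol (98.9% of tested genes had a length).

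Genes were filtered with filterByExpr of edgeR 4.0.16 in R 4.3.3 (minimum count 10, minimum total 15), which left 14300 genes, among them all 8 members. All 9 libraries entered 1 quasi-likelihood fit with TMM scaling and a mean for each group, with Benjamini-Hochberg adjustment of the p values. An adjusted p under 0.05 was called. DESeq2 1.42.0 was an alternative, as were other scalings and filters, fits on 2 groups, the replicate number as a block, a length correction and leaving out each library. The scripts were tested on simulated data. Replicates differed by more than sampling noise (chi-square per degree of freedom 13.6 to 80.1).

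The genes and lists were chosen with earlier results of these data known. All 8 genes were to be named. So were all 10 partners and the 5 genes most like Grm6 and most like Trpm1. From each further list, up to 4 genes that passed against wild type, by smallest adjusted p, could be named, and not all of them are. Sebox and Rgs6 were named after their values were seen. One of the genes that could be named is left out as not reported here. Of 7 amacrine markers 5 were matched in the files.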

Additional observations from a re-analysis of the deposited data

How the results depend on the processing

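Against GFP, Grm6, Trpm1 and Gpr179 were called in 20 of 20 alternatives, and against wild type in 19 of 20. The exception was leaving out the 4 lens libraries, chosen after seeing the data, which leaves 1 wild type library: 0 of the 8 genes were then called higher against wild type, 86 of all genes were higher and 457 lower, and against GFP 876 and 970. With library totals, 3604 genes were higher and 1077 lower against wild type, and 4041 and 1055 against GFP. The median of all genes was then 0.25 and 0.31, and that of the 8 genes 1.19 and 1.16. DESeq2 called 2 genes lower in GFP against wild type. With only the 2 groups compared, 1 of the 8 genes (Lrit3) was lower against wild type (adjusted p = 0.0334). Without wild type 3 and GFP 2, also chosen after seeing the data, it was 1 against either group.

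Leaving out 1 library at a time gave 1269 to 2891 genes higher and 1186 to 2530 lower against wild type, and 1297 to 2266 higher and 1305 to 2138 lower against GFP. The lowest counts came without rd10 1 and the highest against wild type without GFP 2. Of the 8 genes, 0 to 1 were then lower in either comparison, the 1 being Lrit3 without GFP 2. GFP against wild type gave 0 to 4 genes higher. The ratio tests show nothing of stability: their smallest possible p was 0.0357 without a normal library and 0.0714 without an rd10 library, before adjustment.

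Across genes, deviations of same-numbered libraries from their group means correlated at -0.37 to 0.36, and those of differently numbered ones at -0.43 to 0.485. The main fit did not pair libraries by number, and whether the numbers mark a batch was not tested. With the replicate block, 5 of the 8 genes were higher against wild type and 6 against GFP, with 1817 and 1996 of all genes higher and 1789 and 1912 lower. GFP against wild type had 0 calls in either direction with the block. Nyx had 48 to 617 counts and Lrit3 42 to 402 counts per library, the fewest of the 8 genes.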
